A study of Rattus norvegicus with 25 samples.

Results

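Col1a1, Col1a2, Col3a1, Fn1 and Sparc, 5 genes of the fibrillar collagen and interstitial matrix program, were followed through postnatal life in the prefrontal cortex of the rat. They were chosen by Ensembl gene ID: ENSRNOG00000003897 for Col1a1, ENSRNOG00000011292 for Col1a2, ENSRNOG00000003357 for Col3a1, ENSRNOG00000014288 for Fn1 and ENSRNOG00000012840 for Sparc. All 5 IDs were in the deposited table, which lists 29516 gene IDs, and all 5 were among the 14128 that reached 1 FPKM in at least 5 libraries and were tested. FPKM is the number of sequenced fragments scaled to transcript length and to the mapped fragments of the library. The table holds IDs without gene names, and the pairing of these 5 IDs with symbols came with the list of genes rather than from the table.

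RNA with ribosomal RNA depleted was sequenced from wild-type Wistar rats at 5 ages from postnatal day 8 (P8) through P14, P21 and P35 to P70, to compare gene expression between these stages. The 25 libraries were 5 per age, and the labels name no treatment. Whether the libraries of an age come from different rats is not stated, and p-values therefore measure only the spread between these samples, which may be technical. The labels used here do not name the sex of the rats.

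Fibrillar collagens are secreted as precursors, wind into triple helices and assemble outside the cell into the fibrils that give skin, bone, tendon and vessel walls their tensile strength. Type I collagen is built from the products of Col1a1 and Col1a2, with more Col1a1 than Col1a2 chains in each helix, and type III collagen from Col3a1 chains alone. Fibronectin, the product of Fn1, is a dimeric adhesive glycoprotein that binds integrins and collagen and helps to organize the young matrix, and SPARC is a secreted collagen-binding protein that modulates cell-matrix contact. In the brain, fibrillar collagen is found mainly in the meninges and around larger vessels, whereas SPARC is also made by glia and endothelial cells.

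RefSeq promoter windows were at hand for 2 of the 5 genes, Col1a2 and Sparc, and are shown as the 2 members with an entry. Each run is the 250 bases before the annotated start in build GRCr8, read 5′ to 3′ on the gene's strand. Col1a2 lies on the plus strand of chromosome 4 at chr4:33518307-33518556, and Sparc on the minus strand of chromosome 10 at chr10:40038817-40039066. Capitals mark matches on either strand to TATAAA (the TATA box), CCAAT (the CCAAT box), GGGCGG (the GC box) and GGAGG (a purine-rich element), which were chosen with the sequences in view.
Col1a2: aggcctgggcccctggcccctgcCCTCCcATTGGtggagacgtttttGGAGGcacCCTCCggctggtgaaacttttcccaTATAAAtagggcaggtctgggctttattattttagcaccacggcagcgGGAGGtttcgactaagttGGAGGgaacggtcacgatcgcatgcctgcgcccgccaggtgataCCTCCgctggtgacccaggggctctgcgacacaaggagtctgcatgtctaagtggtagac
Sparc: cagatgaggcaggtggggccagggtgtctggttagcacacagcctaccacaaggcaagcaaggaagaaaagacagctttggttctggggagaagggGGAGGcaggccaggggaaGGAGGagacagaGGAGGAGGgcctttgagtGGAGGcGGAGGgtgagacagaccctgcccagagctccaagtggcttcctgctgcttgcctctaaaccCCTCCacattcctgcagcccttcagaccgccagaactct

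The Col1a2 window holds TATAAA once, 170 to 165 bases before the annotated start, and CCAAT once on the opposite strand, 221 to 217 bases before it. Neither stands in the Sparc window, which instead has GGAGG 6 times on its own strand between 154 and 96 bases before the start, 1 pair overlapping, and 1 time on the opposite strand. GGAGG also occurs in the Col1a2 window, 3 times on each strand, and GGGCGG occurs in neither window. Among all 33469 windows of this length, 12.9% hold TATAAA, 34% CCAAT, 30.5% GGGCGG and 64.7% GGAGG on either strand. These matches describe the letters only.

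The 5 genes differed widely in level. Sparc was the highest of them in all 25 libraries, at 48 to 104.7 FPKM, and its age means stood above 92.9% to 96.3% of the gene IDs tested. Col3a1 came next at P8, with a mean above 70.2% of tested gene IDs, but was near the middle at P70, above 46.6%. Col1a2 stood above 36.6% to 46.4% and Col1a1 above 19.9% to 29% of tested gene IDs, depending on the age. Fn1 moved from above 38.9% at P8 to above 22.9% at P35. Col1a1 was the lowest of the 5 genes in 20 libraries and Fn1 in the other 5.

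**Figure D1:**
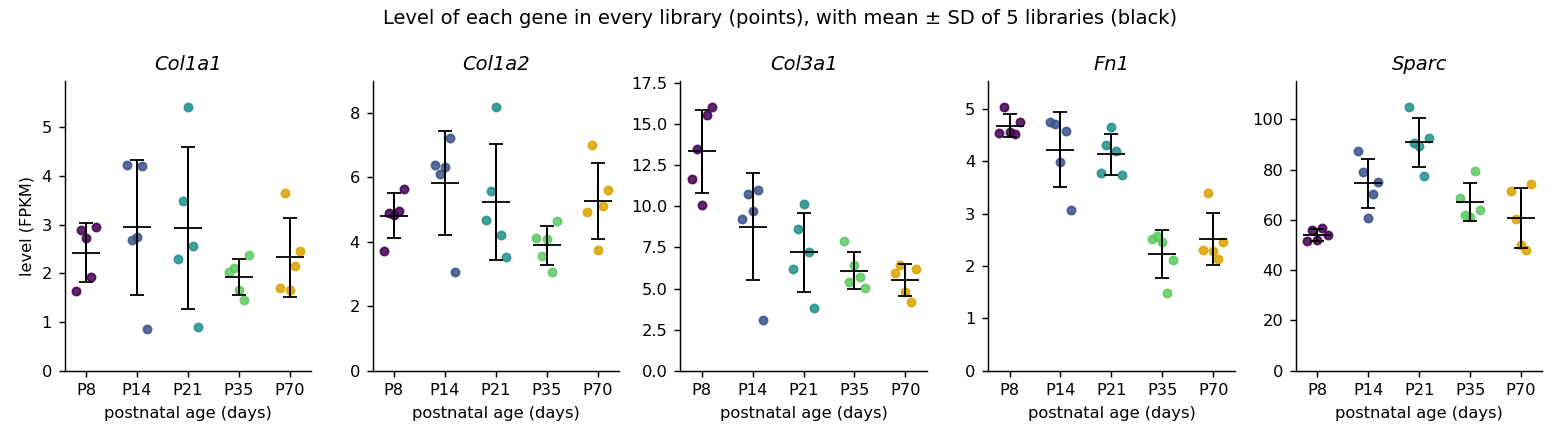
Level of each gene in FPKM (vertical axes start at 0 and differ between panels) against postnatal age, with 1 point per library, and mean ± SD of 5 libraries in black. Col3a1 falls from a mean of 13.3 FPKM at P8 to 5.51 at P70, Fn1 drops between P21 and P35, Sparc is highest at P21, and the low Col1a1, Col1a2 and Col3a1 points at P14 all belong to replicate 5.

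Over the 5 ages together, Col3a1, Fn1 and Sparc differed and the type I collagen genes did not pass (limma moderated F-test, adjusted p = 0.00278 for Col3a1, 5.67e-07 for Fn1, 0.00014 for Sparc, 0.255 for Col1a2 and 0.793 for Col1a1). That is 3 of 5 genes, where 55.5% of all gene IDs tested passed the same test, so the share is near that of the tissue at large. With FPKM totals made equal between libraries, 0 of 5 passed, where the share of all gene IDs tested was 15.5%. Those totals ran from 472548 to 1649378, a 3.49-fold range, so this scaling moves every gene of a library by a large factor. In these bulk samples fewer cells of a type and less RNA per cell cannot be told apart, and markers of fibroblasts, vessels and glia were not analysed here because their IDs are not paired with names.

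Col3a1, the gene of type III collagen, was highest at P8 and fell by P70. At P8 the 5 libraries were at 11.6, 13.5, 10.1, 15.5 and 16 FPKM, a mean of 13.3 ± 2.53 (SD, n = 5). At P14 they were at 9.2, 10.7, 9.71, 11 and 3.1 FPKM, a mean of 8.75 ± 3.24 (SD, n = 5). Replicate 5 of P14 was far below the other 4, which came close to the lowest P8 libraries and partly above them. The P21 libraries were at 6.21, 8.6, 10.1, 7.2 and 3.8 FPKM, with a mean of 7.19 ± 2.4 (SD, n = 5). At P35 the values were 7.89, 5.38, 6.44, 5.68 and 5.02 FPKM, and at P70 5.95, 6.42, 4.77, 4.18 and 6.21 FPKM, with means of 6.08 ± 1.14 and 5.51 ± 0.978 (SD, n = 5 each). Every P70 library was below every P8 library, as was the case in either direction for 44.0% of all tested gene IDs.

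Between P8 and P70 Col3a1 fell by 1.2 log2 units, to 0.435 of its early level (95% interval -1.74 to -0.67, SE 0.26, limma adjusted p = 0.000403). No single step between neighbouring ages passed. The first step was the largest estimate, -0.67 ± 0.26 (SE, limma adjusted p = 0.0546), and it narrowly missed. It passed without P8 replicate 3, P14 replicate 2, P14 replicate 4 or P21 replicate 5 (limma adjusted p = 0.0415, 0.0375, 0.0387 and 0.0347), and came to -0.36 without P14 replicate 5 (limma adjusted p = 0.186). It also passed under quantile and median-of-ratios scaling and without the 2 libraries of lowest depth, P21 replicate 5 and P70 replicate 2 (limma adjusted p = 0.0435, 0.0490 and 0.0387). The later steps were -0.22, -0.18 and -0.13 log2 units, with limma adjusted p of 0.612, 0.865 and 0.9999. From P8 to P21, a contrast added after the values were seen, the fall was already -0.89 ± 0.26 log2 units (SE, limma adjusted p = 0.00612). The P8 to P70 change stood below all but 5.95% of those of other genes.

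Fn1, the fibronectin gene, passed the test in no step up to P21 and then fell. The P8 libraries were at 4.54, 5.03, 4.55, 4.52 and 4.75 FPKM, a mean of 4.68 ± 0.216 (SD, n = 5). The P14 values were 4.75, 4.71, 3.99, 4.57 and 3.07 FPKM, and the P21 values 3.77, 4.31, 4.65, 4.19 and 3.73 FPKM. These 3 ages overlapped, with means of 4.22 ± 0.711 at P14 and 4.13 ± 0.386 at P21 (SD, n = 5 each). By P35 the libraries were at 2.52, 2.58, 2.47, 1.49 and 2.11 FPKM, a mean of 2.23 ± 0.454 (SD, n = 5). At P70 they were at 2.31, 3.39, 2.29, 2.13 and 2.46 FPKM, a mean of 2.51 ± 0.501 (SD, n = 5). All P35 libraries lay below all P21 libraries, a separation in either direction that 3.68% of tested gene IDs showed.

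Between P21 and P35 Fn1 fell by 0.77 log2 units, a factor of 0.585 with 0.5 added to each FPKM (95% interval of the log2 change -1.03 to -0.52, SE 0.12, limma adjusted p = 0.00105). It was the 1 gene of the 5 called in this step, in which 1.62% of all tested gene IDs were called and 1.08% fell. The Fn1 change stood below all but 0.602% of the changes of tested gene IDs. Its estimates for the neighbouring steps were -0.15, -0.02 and 0.14 log2 units (P14 minus P8, P21 minus P14 and P70 minus P35, limma adjusted p = 0.402, 0.942 and 0.9999). The interval for P70 minus P35 ran from -0.11 to 0.40. Over the span from P8 to P70 Fn1 fell by 0.79 log2 units (SE 0.12, limma adjusted p = 8.2e-06), and all P70 libraries lay below all P8 libraries. Over that span 54.5% of all tested gene IDs were called, 34.6% as falls, and 44.0% had no overlap in either direction.

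Sparc rose to P21 and came down again. At P8 it was at 51.6, 55.9, 51.9, 56.8 and 53.8 FPKM, a mean of 54 ± 2.33 (SD, n = 5). At P14 it was at 87.5, 78.9, 60.9, 70.3 and 75.1 FPKM, each above every P8 library, a separation that 20.1% of tested gene IDs showed in either direction. The P21 values were the highest, at 104.7, 90.4, 89.2, 77.6 and 92.5 FPKM, and overlapped with P14. Means were 74.5 ± 9.88 at P14 and 90.9 ± 9.69 at P21 (SD, n = 5 each). At P35 Sparc was at 68.8, 61.9, 61.2, 79.6 and 63.8 FPKM, and at P70 at 71.5, 60.2, 49.9, 48 and 74.2 FPKM, with means of 67.1 ± 7.62 and 60.8 ± 12 (SD, n = 5 each). The P70 libraries spanned the P8 range on both sides.

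Sparc was the 1 gene of the 5 called between P8 and P14, with a rise of 0.45 ± 0.12 log2 units or 1.37-fold (SE, limma adjusted p = 0.0066). In that step 28.9% of all tested gene IDs were called and 13.6% rose. The next step, P21 minus P14, gave 0.29 ± 0.12 (SE, limma adjusted p = 0.107) as deposited. Here 0 of the 5 genes passed by limma, against 17.4% of all gene IDs, and only Sparc had an unadjusted p under 0.05. The following decrease, P35 minus P21, was -0.44 ± 0.12 (SE, limma adjusted p = 0.0727), with 1 P35 library, replicate 4, above the lowest P21 library, and it passed without that library (limma adjusted p = 0.0459). Across the peak, in contrasts added after the values were seen, Sparc rose by 0.74 ± 0.12 log2 units from P8 to P21 and fell by 0.59 ± 0.12 from P21 to P70 (SE, limma adjusted p = 2.05e-05 and 0.00312). For these contrasts 50.7% and 6.12% of all tested gene IDs were called, 42.7% and 7.71% had no overlap between ages, and Sparc had none in either.

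Several Sparc calls depended on the scaling of the libraries. Quantile and median-of-ratios scaling brought the median P70 minus P8 change of the tested gene IDs from -0.16 to -0.02 log2 units. Under them Sparc was 0.38 and 0.30 log2 units higher at P70 than at P8 (limma adjusted p = 0.000287 and 0.00295), against 0.15 ± 0.12 (SE, limma adjusted p = 0.32) as deposited. Under the same scalings the steps on either side of P21 passed too, at 0.38 and 0.39 (P21 minus P14, limma adjusted p = 0.00163 and 0.00148) and -0.43 and -0.42 (P35 minus P21, limma adjusted p = 0.00274 and 0.00403). With equal FPKM totals, which move the median of all gene IDs to 0.17 for P14 minus P8 and -0.37 for P21 minus P14, the Sparc estimates were 0.71 and -0.03 and neither passed (limma adjusted p = 0.251 and 0.948). Fn1 from P21 to P35 was -0.70 under equal totals (limma adjusted p = 0.9999). The differences of Col3a1 and Fn1 from P8 to P70 were -1.08 and -0.69 under equal totals (limma adjusted p = 0.0668 and 0.15).

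**Figure D2:**
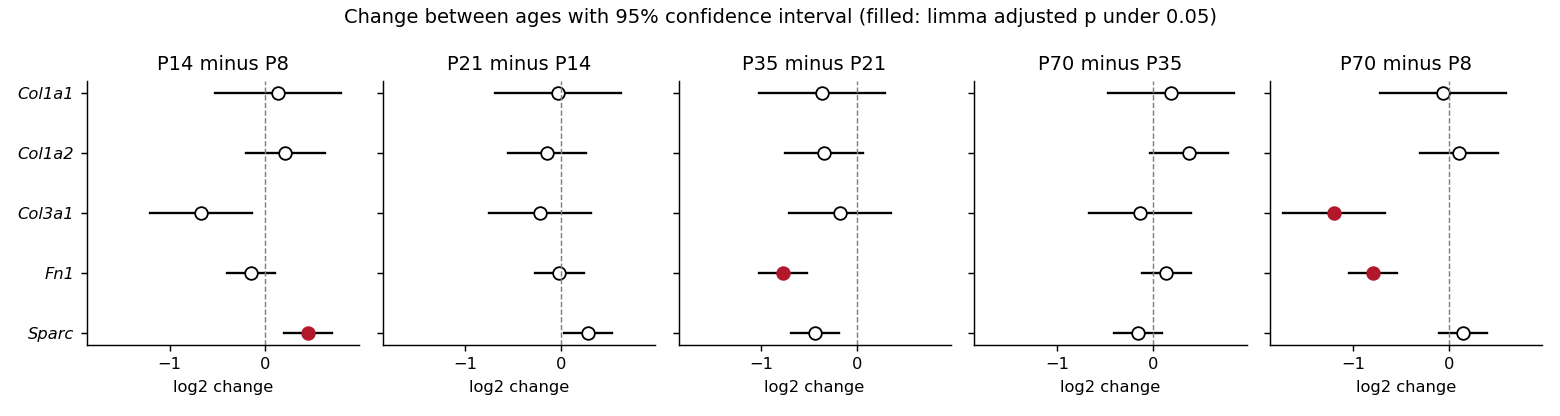
Log2 change between ages (horizontal axis, on the log2(FPKM + 0.5) scale) for each gene, with the 95% confidence interval of the limma fit as a line. Filled points passed an adjusted p of 0.05: Sparc between P8 and P14, Fn1 between P21 and P35, and Col3a1 and Fn1 from P8 to P70, while the intervals of Col1a1 and Col1a2 include 0 in all 5 panels.

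The type I collagen genes showed no change with age that passed in any contrast. Col1a1 was at 1.63, 2.88, 2.72, 1.91 and 2.96 FPKM at P8 and at 4.22, 2.68, 2.75, 4.21 and 0.85 FPKM at P14. At P21 it was at 2.3, 3.49, 5.4, 2.56 and 0.899 FPKM, and thus spanned most of its whole range within that age. The P35 values were 2.03, 2.11, 1.65, 1.45 and 2.37 FPKM and the P70 values 1.71, 3.65, 1.66, 2.16 and 2.46 FPKM. Ages overlapped throughout, with means between 1.92 ± 0.367 at P35 and 2.94 ± 1.39 at P14 (SD, n = 5 each). For Col1a1 the change from P8 to P70 was -0.06 ± 0.32 log2 units (SE, limma adjusted p = 0.886), with a 95% interval of -0.72 to 0.60.

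Col1a2 was at 3.72, 4.88, 4.83, 4.97 and 5.65 FPKM at P8, at 6.39, 6.09, 6.32, 7.22 and 3.05 at P14 and at 4.68, 5.56, 8.17, 4.21 and 3.54 at P21. Its P35 libraries, at 4.1, 3.57, 4.08, 3.07 and 4.64 FPKM, had the lowest mean, 3.89 ± 0.597 (SD, n = 5). At P70 they were at 4.93, 7.01, 3.75, 5.1 and 5.6 FPKM, a mean of 5.28 ± 1.18 (SD, n = 5). P14 replicate 5 was less than any other library of that age, and without it the difference of Col1a2 over the 5 ages passed (limma F-test, adjusted p = 0.0278). The change from P8 to P70 was 0.11 ± 0.20 log2 units (SE, limma adjusted p = 0.673, 95% interval -0.30 to 0.52). Between P35 and P70, where 0 of the 5 genes passed by limma, none had an unadjusted p under 0.05 and 0.120% of all tested gene IDs were called, Col1a2 gave 0.38 ± 0.20 (SE, limma adjusted p = 0.9999).

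Counting all 5 genes, 1 rose and 0 fell between P8 and P14, beside 13.6% and 15.3% of all tested gene IDs. Between P14 and P21 0 rose and 0 fell, beside 5.17% and 12.2%, and 0 of the 5 were without overlap, beside 13.0%. In the step to P35 0 rose and 1 fell, beside 0.545% and 1.08%. Between P35 and P70 0 rose and 0 fell, beside 0.0425% and 0.0779%, and 0 were without overlap, beside 1.02%. From P8 to P21 1 rose and 1 fell, beside 18.3% and 32.4%, and from P21 to P70 0 rose and 2 fell, beside 2.43% and 3.68%. Over the span from P8 to P70, 0 rose and 2 fell, while 19.9% of the whole tested set rose and 34.6% fell, 54.5% together. The median change of the 5 genes over that span was -0.06 log2 units, beside -0.16 for all tested gene IDs. In the step from P21 to P35 the median of the 5 was -0.36, beside 0.00347 for all gene IDs. All 5 estimates were below 0, but only that of Fn1 passed. The confidence intervals of Col1a1, Col1a2 and Col3a1 included 0 (limma adjusted p = 0.73, 0.533 and 0.865). The share of all tested gene IDs below 0 was not counted. The collagens and Fn1 also varied together between libraries, so the 5 signs are not independent and no joint fall is concluded.

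The make-up of the collagen transcripts was compared within each library, where the scaling of the library cancels. Col1a1 was below Col1a2 in all 25 libraries, at 0.254 to 0.662 of its FPKM with a median of 0.49. Type I collagen protein holds more Col1a1 than Col1a2 chains, but these are RNA levels and protein was not measured here. A level per length depends on the gene models used, whose release the labels do not name, and their part in this ratio was not tested. The log2 ratio averaged -1.02 ± 0.26 at P8 and -1.21 ± 0.21 at P70 (SD, n = 5 each), a difference of -0.20 (two-sided exact permutation p = 0.246, or 0.615 adjusted over 20 ratio tests). The lowest ratios were those of P14 replicate 5, at 0.278, and P21 replicate 5, at 0.254.

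Col3a1 was above Col1a1 in every library. The ratio of Col3a1 to Col1a1 was 7.15, 4.69, 3.7, 8.11 and 5.42 in the P8 libraries and 3.49, 1.76, 2.86, 1.94 and 2.53 in the P70 libraries, with no overlap. On the log2 scale the difference was -1.20 (two-sided exact permutation p = 0.00794, the smallest that 5 against 5 can give, and 0.0794 after adjustment over 20 tests). Fn1 to Col1a1 ran from 1.61 to 2.78 at P8 and from 0.928 to 1.37 at P70, again with no overlap. The difference was -0.84 log2 units, with the same exact permutation p and the same adjusted value. The levels of Col3a1 and Fn1 alone also had no overlap between these ages, as for 44.0% of all tested gene IDs. How many other gene IDs separate these ages in their ratio to Col1a1 was not counted. Neither of the 2 ratios passed after adjustment, nor did any of the 20 ratio tests. Both were already at the smallest exact p that 5 against 5 can give. The adjustment over 20 tests could therefore not call them by themselves, and no conclusion is drawn from this outcome. Sparc to Col1a1 was 18.2 to 31.7 at P8 and 16.5 to 41.9 at P70, a difference of 0.23 log2 units (two-sided exact permutation p = 0.444, or 0.741 adjusted).

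**Figure D3:**
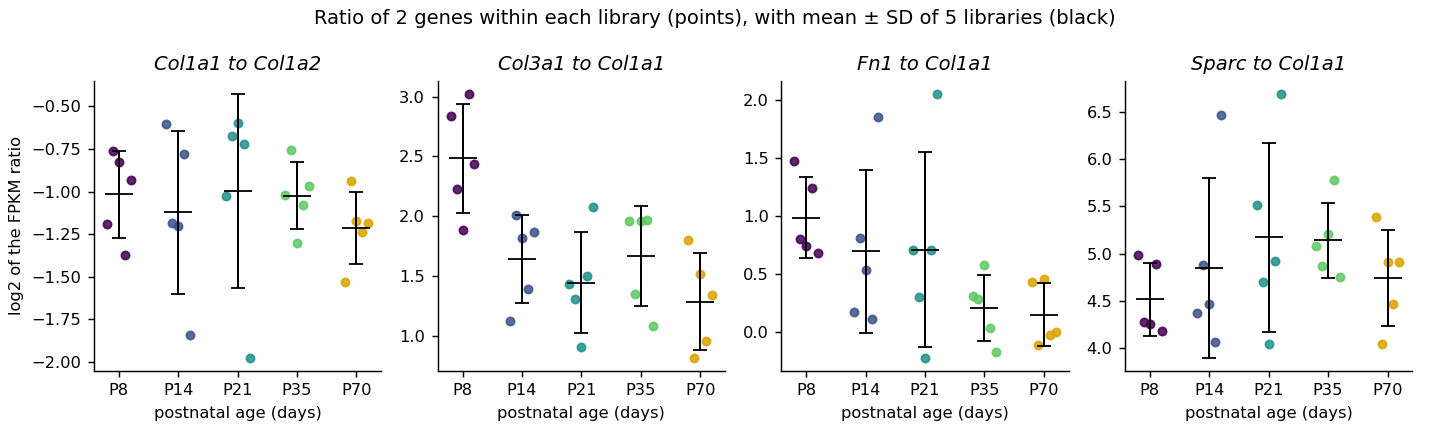
Log2 of the FPKM ratio of 2 genes within each library (vertical axis) against postnatal age, with 1 point per library and mean ± SD of 5 libraries in black. Col3a1 to Col1a1 and Fn1 to Col1a1 separate P8 from P70 without overlap, while the Col1a1 to Col1a2 points stay below 0 in all 25 libraries. The share of other gene IDs whose ratio to Col1a1 separates these ages was not counted.

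At P8, P14 and P21 the SD between libraries was larger for each of the 3 collagens than for Fn1 or Sparc. This did not hold later. On the log2 scale Fn1 had the largest SD of the 5 genes at P35, 0.26. At P70 the SD of Sparc, 0.29, was above that of Col3a1, 0.25. The SD of Col1a1 on the log2 scale was 0.74 at P14 and 0.76 at P21, above 92.1% and 92.7% of tested gene IDs, but 0.22 at P35, above 50.8%. For Sparc it was 0.06 at P8, above 4.67% of tested gene IDs, and 0.15 to 0.29 at the later ages. P14 replicate 5 was the lowest of all 25 libraries, relative to its age mean, for Col1a1, Col1a2 and Col3a1, with deviations of -1.22, -0.78 and -1.25 log2 units. P21 replicate 5 ranked 2 from the lowest for all 3, at -1.14, -0.45 and -0.77. Fn1 was low in these libraries too, at -0.39 in P14 replicate 5 and -0.13 in P21 replicate 5, ranking 2 and 4 from the lowest. In the same libraries Sparc lay 0.02 and 0.03 log2 units above its age mean. P21 replicate 3 was the highest for all 3 collagens, by 0.93, 0.65 and 0.53 log2 units.

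The deviations of single libraries from their age mean were correlated among the 3 collagens and Fn1, while no correlation with Sparc passed. For Col1a1 and Col1a2 Pearson's r was 0.908 (permutation within ages, p = 1e-05, the smallest the permutations can give, adjusted p = 0.0001 over 10 pairs) and Spearman's rho 0.861 (permutation p = 2e-05, adjusted 0.0002) over 25 libraries. Without the 2 libraries farthest out, P14 replicate 5 and P21 replicate 5, r was 0.861 (permutation p = 1e-05, unadjusted). Col1a2 and Col3a1 had r = 0.8 (permutation p = 0.00045, adjusted 0.0012) and rho = 0.737 (permutation p = 0.00057, adjusted 0.0019). Without P14 replicate 5 and P21 replicate 3 their r was 0.654 (permutation p = 0.0096, unadjusted). Col1a1 and Col3a1 had r = 0.776 (permutation p = 0.0027, adjusted 0.0046) and rho = 0.566 (permutation p = 0.0089, adjusted 0.015). Without P14 and P21 replicate 5 their r was lower, 0.499, and did not pass (permutation p = 0.063, unadjusted).

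Fn1 ran with each collagen, with r = 0.693 for Col1a1, 0.693 for Col1a2 and 0.641 for Col3a1 (permutation p = 6e-05, 0.00058 and 0.00052, adjusted 0.0003, 0.0012 and 0.0012). The rho values were 0.7, 0.597 and 0.604 (permutation p = 0.00026, 0.0039 and 0.0013, adjusted 0.0013, 0.0079 and 0.0033). Without the 2 farthest libraries r was 0.621, 0.594 and 0.503 (permutation p = 0.0014, 0.013 and 0.007, unadjusted). Sparc had r between -0.0748 and 0.111 and rho between -0.0338 and 0.172 with the other 4 genes (permutation p from 0.63 to 0.94 for r and from 0.41 to 0.97 for rho, adjusted 0.59 to 0.97). Without the 2 farthest libraries its r was 0.0261 to 0.238. All genes of a library share its scaling, and libraries with the same first number in their titles may not be independent. Of the 15 first numbers, 9 had 2 or more libraries. The limma fit put the correlation between libraries sharing a first number at 0.33 over the tested gene IDs. These permutations and the exact ratio tests treated such libraries as exchangeable with the others, so their p-values may be too small.

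**Figure D4:**
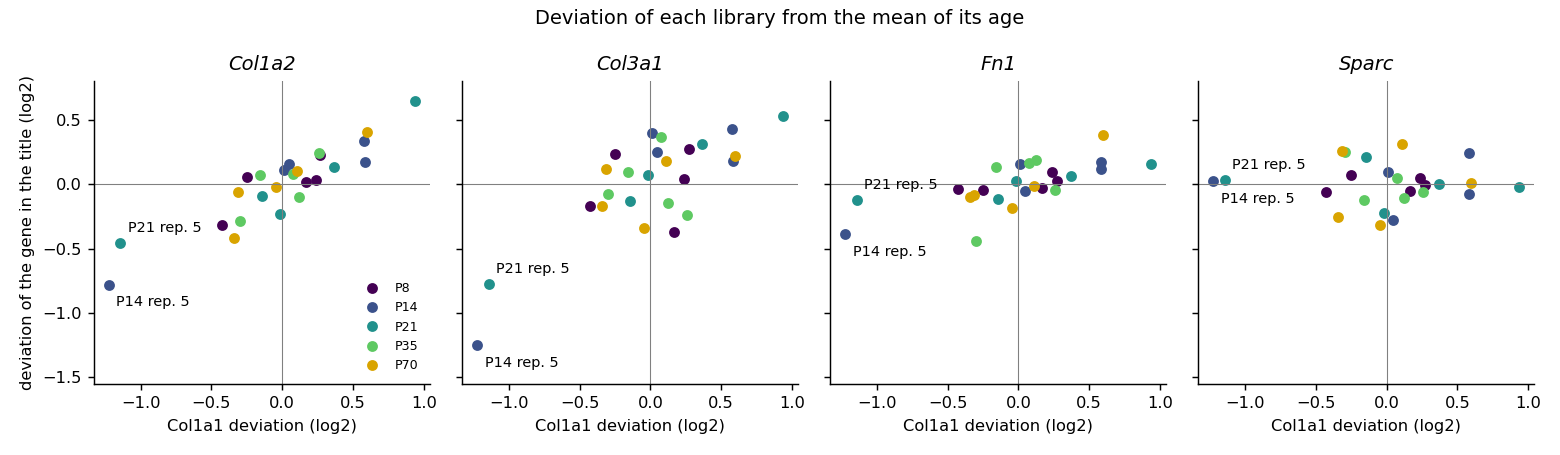
Deviation of each library from the mean of its age on the log2(FPKM + 0.5) scale, with Col1a1 on the horizontal and the gene in each panel's title on the vertical axis, coloured by age. Col1a2 follows Col1a1 closely, r = 0.908 over 25 libraries, Sparc does not, r = -0.0165, and P14 replicate 5 and P21 replicate 5 lie at the far left.

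Among all tested gene IDs the type I collagen genes were each other's nearest match. Over the 25 libraries Col1a2 had the highest Pearson correlation with Col1a1 of the 14127 other gene IDs, r = 0.8825, and Col1a1 ranked 1 for Col1a2. The next ID for Col1a1 was nearly level, at r = 0.8818, and the next for Col1a2 was at 0.8105. Col3a1 ranked 388 for Col1a1 and 327 for Col1a2 on this measure, and Sparc ranked 6044 and 6253. After age means were removed, Col1a1 still ranked 1 for Col1a2. For Col1a1, Col1a2 then ranked 2, at r = 0.9080 behind another ID at 0.9131. Col3a1 then ranked 142 for Col1a1 and 22 for Col1a2, while Col1a1 and Col1a2 ranked 394 and 246 for Col3a1. Fn1 ranked 513 for Col1a1, 234 for Col1a2 and 1609 for Col3a1, so many other IDs were more alike. The IDs most like Col3a1, Fn1 and Sparc over all libraries were ENSRNOG00000027914 (r = 0.9418), ENSRNOG00000021437 (r = 0.9092) and ENSRNOG00000008697 (r = 0.8891), none of them paired with a name. These values describe likeness over libraries that share ages and scaling.

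The deposited FPKM of Col1a2, Col3a1 and Sparc were whole multiples of a single read in all 25 libraries, within 0.05 reads, and gave 161 to 937, 181 to 2067 and 1399 to 6141 reads per library. No read numbers met that tolerance for Col1a1 and Fn1, and none are given. Col1a2 and Col3a1 had their fewest reads in P21 replicate 5, where counting error alone was 7.88% and 7.43% of the value (1 SD). That library was at 0.386 of the median depth, the least of all. P14 replicate 5, at 0.706 of the median depth, had 254 reads of Col1a2 and 270 of Col3a1. P70 replicate 2, at 0.447, ranked 24 of 25 from the lowest for both type I genes relative to its age, and P21 replicate 3, at 0.651, ranked 25 for all 3 collagens. Whether depth had a part in the low or high values was not tested. P14 replicate 5 and P21 replicate 5 had mean correlations with their age group of 0.919 and 0.931, below all libraries but P14 replicate 2 at 0.906. Without these 3 libraries of lowest correlation, an alternative chosen after seeing the data, all 5 genes differed over the 5 ages, Col1a1 at a limma F-test adjusted p of 0.0293 and Col1a2 at 0.0196, where 57.9% of all gene IDs tested passed.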

How the data were processed

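The authors deposited 1 table of FPKM values, with 1 column per library. Per the labels' protocols, RNA was depleted of ribosomal RNA, sequenced as 50 bp single-end reads and aligned to rn4 with GSNAP. The submitters' processing notes list Cufflinks, bedtools and BWA 0.6.1 without saying what each did, and name rn4. For annotation, strand setting and multi-mapping reads the labels used here give nothing. FPKM is relative, so an abundant transcript lowers all others in its library.

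Columns were matched to libraries by title, and replicates were numbered in accession order. No libraries were identical (0 pairs). log2(FPKM + 0.5) of the 14128 gene IDs with at least 1 FPKM in at least 5 libraries was fitted with limma 3.58.1 in R 4.3.3, with 1 mean per age, 20 residual degrees of freedom, a trend with level, and Benjamini-Hochberg adjustment over all IDs. Calls are at an adjusted p under 0.05. Changes on this scale understate those of low genes. The fit and the read search were tested on simulated data. Ratios were tested by exact permutation (SciPy), and deviations from age means with 100000 permutations within ages. Read numbers came from relative depths, given by the commonest FPKM ratios of sparse gene IDs, and are the smallest that make all 25 values of a gene whole within 0.05 reads, which held for 3 of the 5 genes.

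The genes, lists and tests were chosen with earlier results of these data known. The contrasts P21 minus P8 and P70 minus P21, the correlations, the motifs and 2 of the alternatives were added after the values were seen. The naming rule took the 5 genes, genes of 19 symbol lists and the 3 most alike named genes. As 0 table IDs matched the RefSeq table, the lists were not analysed here, and the most alike ID was given for 3 genes. Promoters are from RefSeq, build GRCr8, matched by symbol for 2 of 5 genes.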

Additional observations from a re-analysis of the deposited data

Results flagged for a closer look

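In 45 groups of 5 libraries (5 genes and 4 ratios at 5 ages), a library standing far from the other 4 was looked for by the gap to its nearest neighbour relative to the range. It was found in 6 groups, where chance gives about 2.25, and the groups share libraries and genes. Col1a2 in P14 replicate 5 was at 3.05 FPKM, against 6.09 to 7.22 in the other P14 libraries. Col3a1 in the same library was at 3.1 FPKM, against 9.2 to 11. Its ratio of Fn1 to Col1a1 was 3.61, against 1.09 to 1.76, and its ratio of Sparc to Col1a1 was 88.4, against 16.7 to 29.4. P21 replicate 5 had a ratio of Fn1 to Col1a1 of 4.15, against 0.86 to 1.64. Fn1 in P70 replicate 2 was at 3.39 FPKM, against 2.13 to 2.46, in the library with the second lowest depth, 0.447 of the median.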

How the results depend on the processing

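The number of genes called moved with the scaling. Quantile and median-of-ratios scaling called 2 genes for P14 minus P8, 1 for P21 minus P14, 2 for P35 minus P21 and 3 for P70 minus P8, in place of 1, 0, 1 and 2. Of all gene IDs tested, quantile scaling called 33.0%, 18.4%, 3.08% and 55.3% there, and median-of-ratios scaling 33.9%, 19.8%, 3.34% and 55.2%. Equal FPKM totals called 0 in every contrast and over the 5 ages, in place of 3. Calls over all gene IDs were fewer too, at 3.59%, 1.1%, 0.0208% and 0.0485% in the 4 steps, 17.1% for P70 minus P8, 13.2% for P21 minus P8, 0.145% for P70 minus P21 and 15.5% over the ages. The cause was not tested. A mean of at least 5 FPKM removed Col1a1 and Fn1 from the test. This left 0 calls for P35 minus P21, 1 for P70 minus P8 and 1 for P70 minus P21. Of the 8156 gene IDs tested under this filter, 1.56%, 57.3% and 5.87% were called in these contrasts. Without the 2 libraries of lowest depth 2 genes were called for P14 minus P8 (30.2% of all gene IDs), and without the 3 of lowest same-age correlation all 5 differed over the ages (57.9%). With 1 library left out the count ran from 1 to 2 for P14 minus P8 (2 without P8 replicate 3, P14 replicate 2 or 4, or P21 replicate 5) and for P35 minus P21 (2 without P35 replicate 4), and from 3 to 4 genes over the 5 ages. The share of all gene IDs called was not counted for single libraries left out. With all 25 libraries it was 28.9%, 1.62% and 55.5%, and no conclusion about the 5 genes is drawn from these counts. Apart from single libraries left out, 341 of 371 log2 changes of single genes under an alternative had the same direction and side of the threshold. Most of these changes were not called in the main fit, so this count says little about the called ones. Among the rest, 13 changed sign, 9 newly passed and 8 no longer passed, these 8 all under equal FPKM totals. The first title number as a random effect changed no call of the 5 genes. No paired analysis was possible because no first title number recurs at more than 1 age.

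Changes of sign were seen in estimates that passed under neither setting. For P21 minus P14, Col1a1 was 0.0195, 0.055 and 0.258 and Fn1 0.0358, 0.0705 and 0.0141 under quantile scaling, median-of-ratios scaling and without the 2 libraries of lowest depth. For P70 minus P8, Col1a1 was 0.0568, 0.065 and 0.0383 under quantile, median-of-ratios and equal totals. Equal totals gave 0.0926 for Fn1 (P14 minus P8) and -0.0334 for Sparc (P21 minus P14). Col1a2, P70 minus P21, was -0.0749 without the 3 and -0.175 without the 2 libraries named above.

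With 1 library left out, Col1a1 ran from -0.00976 to 0.441 (P14 minus P8), -0.333 to 0.258 (P21 minus P14), -0.211 to 0.0235 (P70 minus P8), -0.125 to 0.394 (P21 minus P8) and -0.456 to 0.0632 (P70 minus P21). Col1a2 ran from -0.092 to 0.184 (P21 minus P8) and -0.0749 to 0.201 (P70 minus P21), and Fn1 from -0.115 to 0.0249 (P21 minus P14). The log2 ratio of Col1a1 to Col1a2 changed by -0.235 to 0.0759, -0.0571 to 0.368 and -0.271 to 0.0738 in the first 3 steps. Fn1 to Col1a1 changed by -0.32 to 0.303 (P21 minus P14) and -0.151 to 0.0353 (P70 minus P35). Sparc to Col1a1 changed by -0.0729 to 0.528, -0.056 to 0.726 and -0.314 to 0.346 in the first 3 steps. No read numbers could be given for Col1a1 and Fn1, so their counting error is unknown.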
